A study of Mus musculus with 4 samples.

Results

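Collagens are proteins of the extracellular matrix in which chains with a repeating glycine motif wind into a helix. Fibrillar chains form the cables of connective tissue, collagen IV forms the sheet of basement membranes, and other chains link fibrils, form beaded filaments or span the plasma membrane. In the brain, collagens are known mainly from the meninges that cover the surface and from the basement membranes of blood vessels, and some are also made by neurons and glia. The genes described here are those whose symbol on the array consists of COL, a number, A and a number, which took 88 probes of 40 genes out of 45281 probes of 30854 symbols. All 40 symbols are also symbols of the RefSeq gene table of the mouse assembly GRCm38.p6. The array writes symbols in capitals, and they are given here in the mouse style.

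RNA was taken from the anterior and from the posterior lobes of the cerebellum of Swiss mice at postnatal day 7 (PN7), with no treatment, to find genes expressed differently between the lobes. Total RNA of 2 anterior and 2 posterior samples was measured on Illumina MouseWG-6 v2.0 bead arrays, 1 array per sample. The labels give neither the sex of the animals nor whether they were pooled, and they do not say that the replicates came from separate animals, so the p-values measure only the spread between these samples. The median intensity of all probes was 129.6 and 110.2 on the arrays of anterior replicates 1 and 2 and 121.8 and 123.7 on those of posterior replicates 1 and 2, with a median of 40 to 42 beads per probe. Of the cerebellar markers, 7 of 9 granule neuron genes and 7 of 9 Purkinje cell genes were detected well enough to be tested. Atoh1, Cbln3, Calb1 and Car8 were not detected on any array. A probe without signal does not show that its gene is silent, here or for the collagens.

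The arrays of replicate 1 stood apart from those of replicate 2 in both lobes. Xist, the RNA of the inactive X chromosome, had a log2 signal of 13.05 and 13.01 on the arrays of anterior and posterior replicate 1 against 7.07 and 6.83 on those of replicate 2 (ILMN_2475156). The Y-linked gene Ddx3y was on the other side, with 9.43 and 9.61 against 12.07 and 12.11 (ILMN_2899599). Each lobe thus had 1 array of either kind, and the arrays of a lobe were not repeats of 1 RNA. Over the tested collagen probes the difference between the arrays of a lobe had an SD of 0.41 on the log2 scale for the anterior pair and 0.15 for the posterior pair, against 0.32 and 0.20 over all tested probes. The anterior value rests on ILMN_2862538 of Col12a1, with 9.05 on the array of replicate 1 and 7.09 on that of replicate 2, and without this probe it was 0.26.

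A probe counted as detected where its detection score, the share of negative control probes that were dimmer, was over 0.95. Of the 88 collagen probes, 41 were detected on each anterior array, 36 on the first and 38 on the other posterior array. The test took probes detected on 2 or more arrays, and 41 collagen probes of 30 genes passed, 35 of them detected on all 4 arrays. No probe of Col4a3, Col4a4, Col5a2, Col9a3, Col10a1, Col11a1, Col11a2, Col13a1, Col19a1 or Col25a1 passed, and 45 of the 47 probes left out were not detected on any array. Nearest to the limit, the second-highest score was 0.954 for ILMN_2854065 of Col4a6, 0.962 for ILMN_2707616 of Col22a1 and 0.963 for ILMN_2857666 of Col24a1 among the probes kept. It was 0.947 for ILMN_1246775 of Col1a1, 0.940 for ILMN_1217703 of Col11a1 and 0.933 for ILMN_1258759 of Col6a2 among those left out.

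Differences are posterior minus anterior on the log2 scale, tested with limma over all 21726 tested probes. Probes of collagen genes were called in both directions by the criterion given below, which uses an unadjusted p. Col28a1 was the collagen gene that passed the adjusted p of 0.05 with the replicate number left out of the fit. Probes of Col3a1, Col6a1, Col12a1, Col17a1 and Col23a1 were also higher in the posterior lobes by the criterion of the study, a change over 1.2-fold with an unadjusted p under 0.05, and probes of Col18a1, Col24a1 and Col27a1 were lower. In all, 13 of the 41 tested collagen probes, 31.7%, passed this criterion, 8 higher and 5 lower, while it took 8.29% of all tested probes, 3.30% higher and 5.00% lower. By the adjusted p, 1 collagen probe passed against 0.106% of all tested probes.

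The count includes 3 probes, of Col24a1 and Col27a1, that were detected in the anterior lobes only and so had to differ to be tested. Among the 35 collagen probes detected on all 4 arrays, 9 passed the criterion, 7 higher and 2 lower, against 7.71% of all such probes, 3.17% higher and 4.54% lower. With 1 probe per gene, 6 of 30 collagen genes passed, 3 in each direction, against 7.92%, and Col24a1 and Col27a1 were among the lower ones. With 1 probe per gene out of those detected on all 4 arrays, 3 of 26 collagen genes passed, 2 higher and 1 lower, or 11.5% against 7.41% of all such genes. At 1.5-fold 2 of the 41 tested probes passed, both higher, and this count is not set against all tested probes here. The posterior pair lay wholly above the anterior pair for 14 collagen probes and wholly below it for 13, or 34.1% and 31.7%, against 21.1% and 21.5% of all tested probes, and among those detected on all 4 arrays for 13 and 10, or 37.1% and 28.6%, against 21.5% and 21.1%. The median difference of the tested collagen probes was 0.018, and 0.0023 over all tested probes.

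The split by direction depended in part on the scaling. Without normalization 10 collagen probes were higher and 3 lower, in place of 8 and 5. The 75th percentile shift gave 8 and 4, while cyclic loess and background correction by nec gave 8 and 5. Over all tested probes, a shift to a common 75th percentile gave 977 higher and 850 lower in place of 716 and 1086. The number of arrays limits the precision, since the smallest two-sided p that an exact permutation of the lobe labels allows is 0.33. Without posterior replicate 1 or without posterior replicate 2, 8 collagen probes passed the criterion and 0 passed the adjusted p by limma, with 8 at an unadjusted p under 0.05 in each case. When an array was left out, counts past the criterion and past the adjusted p also moved over all tested probes, so they are no result about the collagens. With the replicate number as a block, 5 collagen probes passed the adjusted p by limma in place of 1, those of Col28a1 and Col27a1, ILMN_1240481 and ILMN_2879995 of Col17a1 and ILMN_2857666 of Col24a1, of which those of Col27a1 and Col24a1 were detected in the anterior lobes only. The criterion then took 17 collagen probes, 11 higher and 6 lower, and its count over all tested probes rose as well. The labels do not say that the replicate numbers pair the samples. The t-test that the study's methods name, run on the same values, left 9 collagen probes past the criterion, 6 higher and 3 lower, and 0 past its adjusted p, with 9 at an unadjusted p under 0.05. It did not share the limma calls of Col3a1, both Col24a1 probes, ILMN_2879995 of Col17a1 and ILMN_2937542 of Col18a1. It added a lower call among the FACIT collagens, that of Col20a1.

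**Figure D1:**
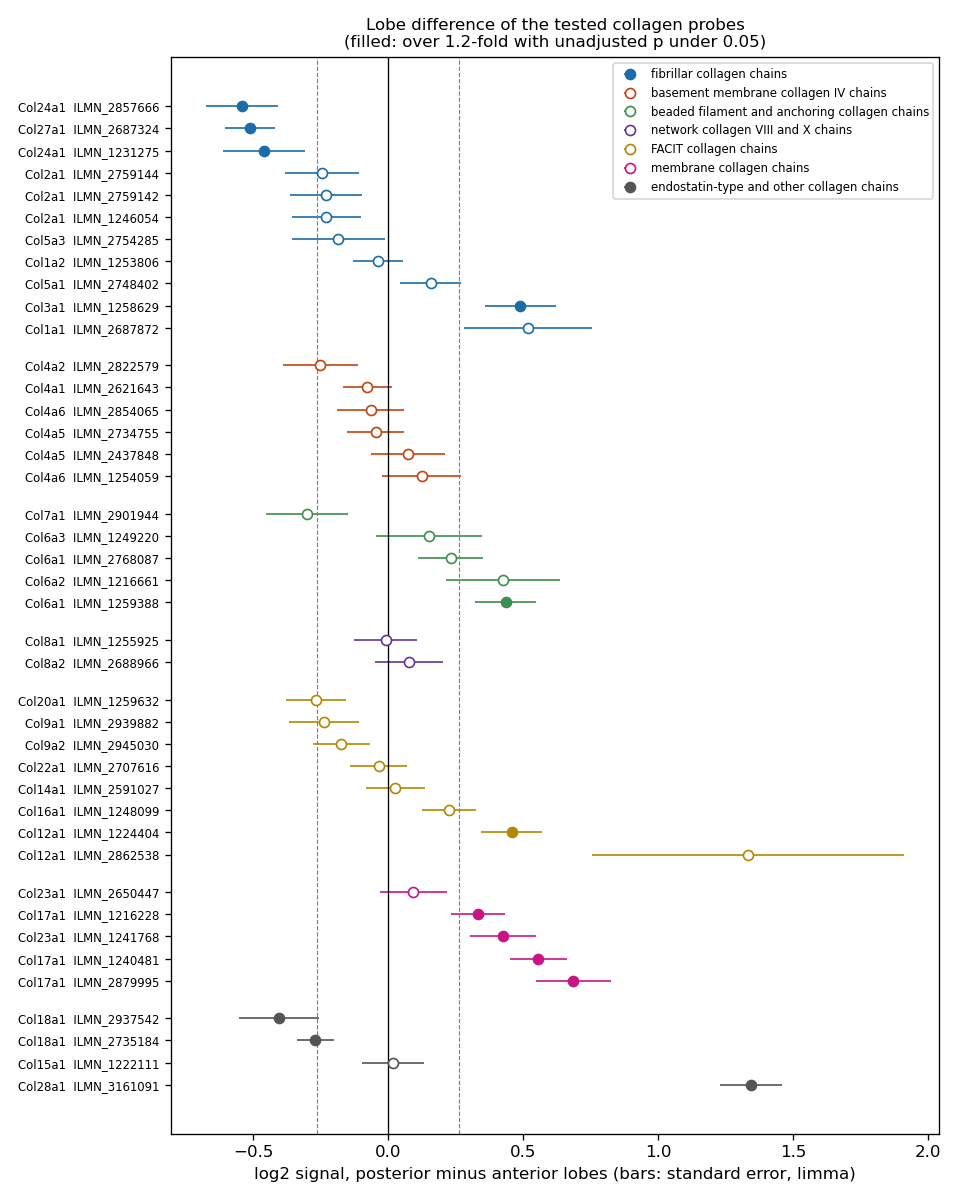
Log2 difference, posterior minus anterior, with its standard error for the 41 tested collagen probes, in 7 groups of chains. Filled points are the 13 probes past 1.2-fold with an unadjusted p under 0.05, and dashed lines mark 1.2-fold. Col28a1, at 1.34, is the point past the adjusted p. The points of Col24a1 and Col27a1 are fitted differences of probes not detected on the posterior arrays. Without normalization 10 of the 13 probes past the criterion were higher, in place of 8.

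Col28a1 encodes collagen XXVIII, a chain with von Willebrand factor A domains that is known from peripheral nerve. Its probe (ILMN_3161091) had an intensity of 331.5 and 277.5 on the anterior and 763.3 and 751.6 on the posterior arrays, each from 36 to 47 beads. After normalization the log2 signal was 8.23 and 8.25 in the anterior and 9.62 and 9.54 in the posterior lobes. Both posterior arrays were higher than both anterior arrays, and the gap was wider than the spread within either lobe. Col28a1 rose by 1.34 on the log2 scale, 2.53-fold (standard error 0.11, adjusted p = 0.035 by limma). The difference was 1.31 without posterior replicate 1 (adjusted p = 0.38 by limma) and 1.38 without posterior replicate 2 (adjusted p = 0.69), so the call needed both posterior arrays. With the methods' t-test Col28a1 passed the criterion but not the adjusted p. Over the 14 alternatives the adjusted p ranged from 6.8e-05 to 0.69. In bulk RNA, fewer cells of a type and less RNA per cell cannot be told apart, here and for the genes that follow.

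The membrane collagens span the plasma membrane and carry their collagen domains outside the cell. Both of the genes in this group with a tested probe, Col17a1 and Col23a1, had probes that were higher in the posterior lobes by the criterion. In all these were 4 of 5 probes, 3 of them of Col17a1, against 3.30% of all tested probes. The median difference of the 5 was 0.42. Col17a1 encodes the hemidesmosome collagen that anchors epithelial cells of the skin. Its probe ILMN_2879995 had a log2 signal of 7.09 and 7.37 on the anterior and 7.99 and 7.83 on the posterior arrays, a difference of 0.68 (standard error 0.14, adjusted p = 0.22 by limma). ILMN_1240481 had 7.31 and 7.33 against 7.92 and 7.83, a difference of 0.56 (standard error 0.11, adjusted p = 0.20). ILMN_1216228 had 7.33 and 7.35 against 7.68 and 7.67, a difference of 0.33 (standard error 0.10, adjusted p = 0.38). With the replicate number as a block ILMN_2879995 and ILMN_1240481 passed the adjusted p by limma. The labels do not say that these numbers pair the samples. On each of the 3 probes both posterior arrays were the high ones and the lobes did not overlap, at signals not far above the lowest detected signals of the arrays, which were 7.01 to 7.06.

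Col23a1 encodes another membrane collagen, which can be shed from the cell surface. For ILMN_1241768 the log2 signal was 8.60 and 8.58 in the anterior and 9.09 and 8.93 in the posterior lobes, a difference of 0.42 (standard error 0.12, adjusted p = 0.37 by limma). The posterior arrays were again the high ones. The other probe of the gene, ILMN_2650447, had 9.41 and 9.61 against 9.55 and 9.66, so that the lobes overlapped (difference 0.09, standard error 0.12, adjusted p = 0.83). Without posterior replicate 1 the membrane collagens past the criterion were 2 probes, since ILMN_1241768 of Col23a1 (unadjusted p = 0.14 by limma) and ILMN_1216228 of Col17a1 (0.076) lost the threshold. ILMN_1216228 also lost it without posterior replicate 2 (unadjusted p = 0.074 by limma) and without normalization (0.070).

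Collagen VI chains assemble into beaded filaments around cells, and collagen VII forms the anchoring fibrils of skin. The median difference of the 5 tested probes in this group was 0.23. Of these, 1 passed the criterion, against 8.29% of all tested probes. It was ILMN_1259388 of Col6a1, with a log2 signal of 9.63 and 9.75 on the anterior and 10.05 and 10.20 on the posterior arrays, a difference of 0.43 (standard error 0.11, adjusted p = 0.32 by limma). ILMN_2768087 of the same gene had 10.77 and 11.01 against 11.03 and 11.21, a difference of 0.23 (standard error 0.12, adjusted p = 0.57). On both Col6a1 probes the posterior arrays lay above the anterior ones, for ILMN_2768087 with almost no gap between the nearest arrays of the lobes. The difference of ILMN_2768087 ran from 0.11 to 0.35 over the 14 alternatives, and in 1 of them it passed a threshold that it missed in the main fit.

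Col6a2 and Col6a3 encode the partner chains of Col6a1. Col6a2 (ILMN_1216661) had a log2 signal of 7.60 and 8.18 in the anterior and 8.20 and 8.43 in the posterior lobes, a difference of 0.42 with a standard error of 0.21 (adjusted p = 0.56 by limma). For Col6a3 (ILMN_1249220) the lobes overlapped, with 10.60 and 10.08 against 10.64 and 10.34. Col7a1 (ILMN_2901944) was on the other side, at -0.30 (standard error 0.15, adjusted p = 0.56), and did not pass the criterion. The call of Col6a1 was lost without posterior replicate 2 (difference 0.36). When an anterior array was left out, the count of the group moved, and counts over all tested probes moved too. With no normalization 2 probes of the group passed, both higher.

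The FACIT collagens do not form fibrils of their own but bind to the surface of fibrils and link them to other matrix proteins. Of their 8 tested probes, 1 was higher and none lower by the criterion, against 3.30% and 5.00% of all tested probes. There was 1 at an unadjusted p under 0.05 by limma, and the median difference was -0.0054. Col12a1 encodes the chain of collagen XII, which binds fibrils of collagen I. Its probe ILMN_1224404 had a log2 signal of 7.18 and 7.06 on the anterior and 7.49 and 7.66 on the posterior arrays, a difference of 0.46 (standard error 0.11, adjusted p = 0.30 by limma). The posterior arrays were higher, and the signals were near the lowest detected ones.

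A different Col12a1 probe, ILMN_2862538, had 9.05 and 7.09 in the anterior against 9.36 and 9.44 in the posterior lobes. The array of anterior replicate 2 was far below the other 3, with an intensity of 123.1 from 23 beads against 578.9, 638.0 and 701.0 from 20 to 35 beads. The difference of 1.33 had a standard error of 0.58 (adjusted p = 0.52 by limma) and was 0.35 without anterior replicate 2 and 2.30 without anterior replicate 1. It thus rested on which anterior array was used. A further Col12a1 probe was not detected.

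Col16a1, which encodes the chain of collagen XVI, holds the FACIT probe of highest mean signal, which does not rank genes by abundance. Its probe (ILMN_1248099) had 10.44 and 10.32 in the anterior and 10.65 and 10.55 in the posterior lobes, a difference of 0.22 (standard error 0.099, adjusted p = 0.53 by limma). The posterior arrays were higher, but the difference was under 1.2-fold. Col20a1 at -0.27, Col9a1 at -0.24, Col9a2 at -0.17, Col22a1 at -0.04 and Col14a1 at 0.03 did not pass the criterion by limma. For Col9a1, Col9a2 and Col20a1 both posterior arrays were below both anterior arrays, and for Col14a1 and Col22a1 the lobes overlapped. The FACIT count past the criterion moved when an anterior array was left out, where counts over all tested probes moved too. Without normalization 2 FACIT probes passed, both higher. With the methods' t-test 2 passed, 1 in each direction, the lower being that of Col20a1.

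Of 11 tested probes of fibrillar chains, 1 was higher and 3 were lower by the criterion, against 3.30% and 5.00% of all tested probes. None of the called probes was detected on all 4 arrays. Of the 7 fibrillar probes detected on all 4, 0 were higher and 0 lower, with 0 at an unadjusted p under 0.05 by limma. The 11 probes had a median difference of -0.23, or -0.22 with the probes undetected in the posterior lobes set at their bound. Col3a1 encodes collagen III, the fibrillar collagen of vessel walls and loose connective tissue. Its probe (ILMN_1258629) had a log2 signal of 7.04 and 6.93 on the anterior and 7.33 and 7.63 on the posterior arrays and was detected on 3 of the 4, not on that of anterior replicate 2. The posterior arrays were higher, by 0.49 (standard error 0.13, adjusted p = 0.34 by limma), and the call was lost without posterior replicate 2 (difference 0.34, unadjusted p = 0.055).

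The lower probes belonged to Col24a1 and Col27a1, which encode short-helix fibrillar chains of developing bone and cartilage. They were detected on both anterior arrays and on neither posterior array, so their size is a bound, the anterior mean against the higher of the lowest detected signal and the probe's own signal on each posterior array. ILMN_2687324 of Col27a1 had 7.41 and 7.35 in the anterior and 6.88 and 6.86 in the posterior lobes, which is at least 1.25-fold lower in the posterior lobes (adjusted p = 0.18 by limma). ILMN_1231275 of Col24a1 had 7.59 and 7.19 against 6.99 and 6.86, at least 1.26-fold lower (adjusted p = 0.42), and ILMN_2857666 had 7.43 and 7.11 against 6.78 and 6.67, at least 1.16-fold lower (adjusted p = 0.29). This last bound is under 1.2-fold, so the call of ILMN_2857666 rests on posterior signals below detection. ILMN_1222523 of Col27a1, not detected on any array, had 6.88 and 6.97 against 6.85 and 6.97, so its lobes overlapped. Further probes of Col24a1 were not detected either. The anterior arrays were the high ones for all 3 called probes, and that of anterior replicate 1 stood above that of anterior replicate 2. These probes passed no filter that asked for detection on all 4 arrays, nor the filter without either anterior array. ILMN_1231275 lost the criterion without posterior replicate 1 (unadjusted p = 0.050 by limma), without posterior replicate 2 (0.12) and without normalization (0.058). Without normalization 2 fibrillar probes were higher and 2 lower. The split also moved when an array was left out, where counts over all tested probes moved too.

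Col1a1 and Col1a2 encode the chains that combine to collagen I, the main collagen of skin and bone. Col1a1 (ILMN_2687872) had a log2 signal of 9.23 and 9.93 on the anterior and 9.96 and 10.23 on the posterior arrays. The lowest array was that of anterior replicate 1, and the gap between the lobes was small beside the distance between the anterior arrays. The difference of 0.52 had a standard error of 0.24 and did not pass the criterion (adjusted p = 0.54 by limma). Col1a2 (ILMN_1253806) had 7.19 and 7.19 against 7.17 and 7.13, a difference of -0.04 close to the lowest detected signals.

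Col2a1, the gene of the main cartilage collagen, holds the fibrillar probe of highest mean signal, which does not rank genes by abundance. Its probe ILMN_1246054 had 10.69 and 11.02 in the anterior and 10.66 and 10.59 in the posterior lobes, a difference of -0.23 (standard error 0.13, adjusted p = 0.60 by limma). Over the 14 alternatives this difference ran from -0.40 to -0.065, and in 1 of them it passed a threshold that it missed in the main fit. The other Col2a1 probes were at -0.23 and -0.25. On each of the 3 probes both posterior arrays were below both anterior arrays, the array of anterior replicate 2 being the highest. Col5a1 and Col5a3, whose chains join collagen I fibrils, were at 0.16 and -0.19 and did not pass the criterion.

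Collagen IV is the network of basement membranes, with Col4a1 and Col4a2 encoding the chains found in almost all of them. None of the 6 tested probes of its 4 tested genes passed the criterion, and 0 had an unadjusted p under 0.05 by limma. Col4a1 (ILMN_2621643) had a log2 signal of 12.56 and 12.66 on the anterior and 12.43 and 12.63 on the posterior arrays, a difference of -0.08 (standard error 0.090, adjusted p = 0.80 by limma). Col4a2 (ILMN_2822579) had 11.91 and 12.29 against 11.77 and 11.93, a difference of -0.25 (standard error 0.14, adjusted p = 0.59). The lobes overlapped for both genes and also for the probes of Col4a5, at 0.07 and -0.05, and Col4a6, at 0.12 and -0.07. A lower call appeared in the group without anterior replicate 1, but counts over all tested probes also moved when an array was left out.

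Col15a1 and Col18a1 encode basement membrane collagens with an endostatin domain at their end. Both tested probes of Col18a1 were lower in the posterior lobes. ILMN_2735184 had a log2 signal of 12.95 and 12.92 on the anterior and 12.62 and 12.72 on the posterior arrays, a difference of -0.27 (standard error 0.067, adjusted p = 0.30 by limma). ILMN_2937542 had 8.90 and 9.22 against 8.61 and 8.71, a difference of -0.40 (standard error 0.15, adjusted p = 0.45). The lobes did not overlap for either probe. Col15a1 (ILMN_1222111) had 10.02 and 10.17 against 10.03 and 10.20, so its lobes overlapped, with a difference of 0.02. Together with Col28a1, these 3 genes had 4 tested probes, 1 higher and 2 lower by the criterion, against 3.30% and 5.00% of all tested probes. The median difference was -0.13.

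The calls of Col18a1 depended on the setting. ILMN_2735184 kept its sign but lost the 1.2-fold or the p threshold without normalization (-0.27, unadjusted p = 0.085 by limma), with the shift to the 75th percentile (-0.24, 0.015), without anterior replicate 1 (-0.26, 0.0073) and without posterior replicate 1 (-0.22, 0.076). ILMN_2937542 did so without anterior replicate 2 (-0.24, unadjusted p = 0.10 by limma), without posterior replicate 1 (-0.36, 0.18) and without posterior replicate 2 (-0.46, 0.10).

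Collagen VIII forms the open network of vessel walls and of a corneal basement membrane. Its chains gave no call, with 0 of 2 probes at an unadjusted p under 0.05 by limma. Col8a2 (ILMN_2688966) had a log2 signal of 8.90 and 9.05 in the anterior and 8.99 and 9.11 in the posterior lobes, a difference of 0.08 (standard error 0.12, adjusted p = 0.87 by limma). Col8a1 was at -0.01. The lobes overlapped for both.

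**Figure D2:**
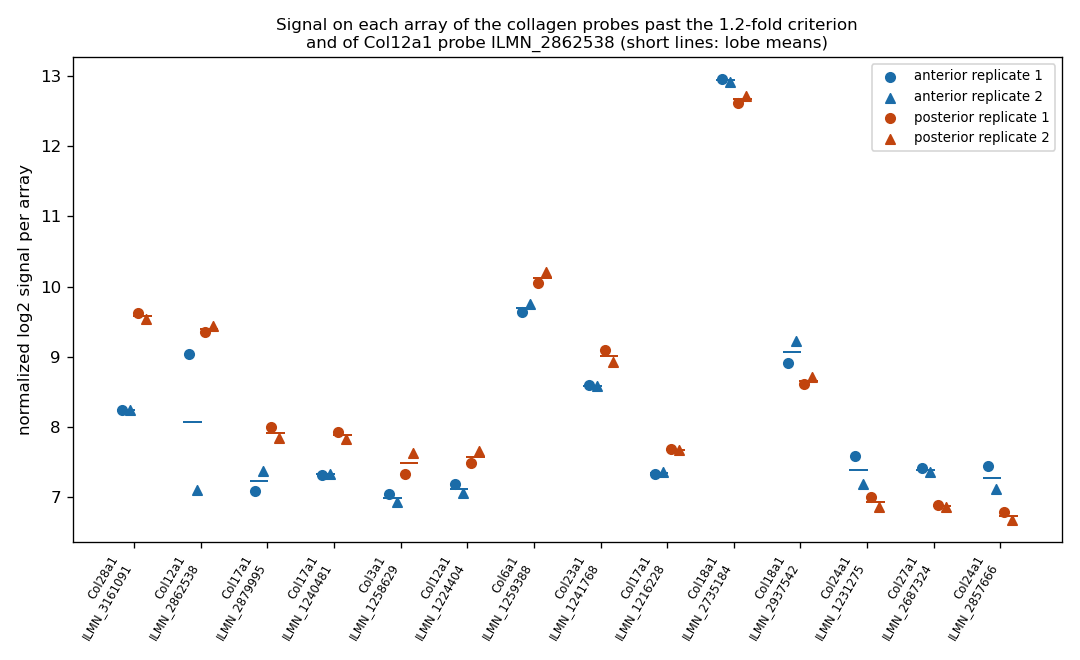
Log2 signal on each array for the 13 collagen probes past the criterion and for Col12a1 probe ILMN_2862538, with circles for replicate 1, triangles for replicate 2, blue for anterior, orange for posterior and short lines for the lobe means. The lobes are apart for every probe shown, most widely for Col28a1 among the 13, and the array of anterior replicate 2 is low at 7.09 for ILMN_2862538. Without normalization 3 of the probes past the criterion were lower, in place of 5.

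Several collagen genes are neighbours in the genome. Col4a1 and Col4a2 overlap in their spans, Col4a6 and Col4a5 have no protein-coding gene between them, and none of these 4 genes passed the criterion. Col6a2 and Col6a1 also lie next to each other, with differences of 0.42 for the former and of 0.43 and 0.23 for the latter. Col18a1, separated from Col6a1 by 2 protein-coding genes, was on the other side, at -0.27 and -0.40. The adjacent Col3a1 and Col5a2 could not be set side by side, since Col5a2 was not tested.

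Making a collagen needs enzymes that hydroxylate the chains, chaperones that fold them, carriers that export them and enzymes that trim and cross-link them outside the cell. Over these genes, the collagen receptors, the proteases and the basement membrane partners, 77 probes of 51 genes were tested, of which 6 were higher and 5 lower by the criterion, or 14.3%, against 8.29% of all tested probes, 3.30% higher and 5.00% lower. Of the 72 detected on all 4 arrays, 5 were higher and 4 lower, against 7.71% of all such probes, and the calls of Lama4 and of ILMN_1226269 of Mia3 rest on detection in 1 lobe only. By limma 0 of the 77 passed the adjusted p, with 12 at an unadjusted p under 0.05. Among the folding and modifying enzymes 1 of 22 probes was higher, that of Plod2 (ILMN_2770429), a lysyl hydroxylase, at 0.31 (adjusted p = 0.44 by limma), while the other Plod2 probes were at 0.24 and 0.16. The gene with the brightest probe was P4hb, a subunit of prolyl hydroxylase, at -0.05. Probes differ in how well they bind, so the brightest probe of any list or group here does not rank genes by abundance. The median of this list was 0.016.

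Among the genes for secretion, trimming and cross-linking 3 of 18 probes were higher and 4 lower, against 3.30% and 5.00% of all tested probes. The median was -0.14, or -0.13 with the probe at its bound. Lox, the lysyl oxidase that cross-links collagen fibrils, had a log2 signal of 8.48 and 8.82 on the anterior and 9.36 and 9.66 on the posterior arrays (ILMN_2997494), a difference of 0.86 (standard error 0.17, adjusted p = 0.21 by limma). The probes of Adamts2, which trims the ends of fibrillar procollagens, were at 0.59 and 0.41. On ILMN_3059326 of Sparc, a collagen-binding matrix protein, the signals were 12.59 and 12.77 against 12.07 and 11.76. This is a difference of -0.77 (standard error 0.12, adjusted p = 0.14 by limma). The list's brightest probe, ILMN_3136561 of Sparc, was at -0.25 and did not pass the criterion, nor did ILMN_1243212 at -0.04. The posterior arrays were thus high for Lox and Adamts2 and low for ILMN_3059326 of Sparc. Bmp1, another procollagen protease, was lower at -0.31 on ILMN_2713538, while its other probes, at -0.25, -0.16 and -0.15, did not pass. Mia3, which loads collagen for export, was at -0.48 on ILMN_1258474 and at least 1.10-fold lower on ILMN_1226269, undetected on both posterior arrays, while its other tested probes, at -0.32 and -0.04, did not pass. The bounds of ILMN_1226269 and, below, of Lama4 are under 1.2-fold. The split of the calls was 4 higher and 2 lower with the 75th percentile shift, 4 and 3 with cyclic loess, 3 and 3 without normalization, and 1 and 1 with the methods' t-test.

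The 7 tested probes of collagen receptors gave no call, with 0 at an unadjusted p under 0.05 by limma, a median of 0.090 and the brightest probe for Ddr1, at -0.17. Of 12 probes of collagen-cutting proteases and their inhibitors, 1 was higher, against 3.30% of all tested probes. It was ILMN_2769918 of Timp1, an inhibitor of these proteases, at 0.39 (adjusted p = 0.38 by limma). The other Timp1 probe was at 0.15 and did not pass. The median of the list was 0.12, and Timp2, with its brightest probe, was at 0.13. Of 18 probes of basement membrane partners 1 was higher and 1 lower by the criterion, against 3.30% and 5.00% of all tested probes. ILMN_2816565 of Lama4 was at least 1.07-fold higher, being undetected on both anterior arrays. Lama5 was lower at -0.31 (adjusted p = 0.44 by limma). ILMN_1251062 of Lama4, which was not tested, was detected on the array of anterior replicate 2 only. The median of the partners was -0.092, and Agrn, with the brightest probe, was at -0.12. The calls in the lists of folding enzymes, proteases and basement membrane partners were lost without normalization and without either posterior array, that of Plod2 also without anterior replicate 2 and that of Lama4 with the methods' t-test. With the 75th percentile shift 1 receptor probe was higher. Counts past the criterion in these lists moved when an array was left out. They moved over all tested probes too, so they are no result about the lists.

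Meningeal fibroblasts, which make many of the fibrillar and filament collagens, were followed by 10 marker genes. Of the 13 tested probes of 9 genes of meningeal fibroblasts, 11 of 8 genes were higher in the posterior lobes and 0 lower by the criterion, against 3.30% and 5.00% of all tested probes, and all 13 had the posterior pair wholly above the anterior pair, against 21.1% of all tested probes. ILMN_1254458 of Dcn and ILMN_2999762 of Fmod were detected in the posterior lobes only, and of the 9 probes detected on all 4 arrays 8 were higher and 0 lower. The median difference was 0.56, or 0.51 with the probes undetected in the anterior lobes at their bound. Ogn, a small proteoglycan of connective tissue, rose from 8.01 and 7.93 on the anterior to 9.73 and 10.20 on the posterior arrays (ILMN_2859613, adjusted p = 0.035 by limma), and Dcn, a proteoglycan that binds collagen fibrils, rose by 0.93 (ILMN_2747959, adjusted p = 0.024). The summed signal of the list was 19475 and 21163 in the anterior and 28498 and 32967 in the posterior lobes. Its brightest probe was that of Igf2, at 0.47, and Aspn was not detected. The direction held under each scaling, with 11 probes higher and 0 lower, and the count was 4 without posterior replicate 2 and 4 with the methods' t-test. The called probes of Col3a1, Col6a1, Col12a1, Col17a1, Col23a1 and Col28a1 were higher too. Those probes were picked by that direction, so the match shows nothing more. Among the other fibrillar and filament chains, Col1a1, Col1a2, Col5a1, Col6a2 and Col6a3 did not pass the criterion. The part of the fibroblasts in the result was not tested.

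The cells of blood vessels are a main source of collagen IV. Of 11 endothelial probes 1 was higher, against 3.30% of all tested probes, ILMN_2866951 of Cdh5 at 0.46, while the other Cdh5 probe was at 0.20 and did not pass. The median was -0.050, and the summed signal was 15272 and 16435 against 15580 and 15296. Cldn5 had the brightest endothelial probe and Abcb1a was not detected. Of 11 probes of mural cells 0 passed the criterion, with 0 at an unadjusted p under 0.05 by limma, and the sums were 6207 and 7397 against 6977 and 7497, with the brightest probe for Vtn and Myh11 and Tagln not detected. Without normalization 1 mural probe was lower. The endothelial count moved when an array was left out, where counts over all tested probes moved too.

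Oligodendrocyte markers were lower in the posterior lobes, as were the called probes of Col18a1, Col24a1 and Col27a1. Those collagen probes were picked by that direction, so the match shows nothing more. By the criterion 19 of the 21 oligodendrocyte probes were lower, against 5.00% of all tested probes, with a median of -1.02. Their summed signal was 110936 and 108368 in the anterior against 78028 and 72861 in the posterior lobes. Mbp had the brightest probe. Each of the 10 genes was detected. Their part in the result was not tested. Of 11 probes of astrocytes and Bergmann glia 0 passed, with 2 at an unadjusted p under 0.05 by limma, and the sums were 90030 and 90074 against 93315 and 86870, with the brightest probe for Slc1a3 and S100b not detected. With the 75th percentile shift 1 of these probes was higher.

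Choroid plexus epithelium was represented by 3 tested probes, of which 1 was lower, that of Clic6 at -0.89, against 5.00% of all tested probes. The summed signal of the list was 1525 and 11924 in the anterior and 1136 and 4693 in the posterior lobes, carried by Ttr, so that the arrays of replicate 2 were high in both lobes. The call of Clic6 was lost without posterior replicate 1 and with the methods' t-test. The count of the list also moved without anterior replicate 1, as counts over all tested probes did when an array was left out. The part of the choroid plexus in the collagen results was not tested. Among neuronal lists, 1 of 8 granule neuron probes, ILMN_2470518 of Zic2, and 1 of 14 Purkinje cell probes, that of Lhx5, were higher, against 3.30% of all tested probes. The other Zic2 probe was at 0.14 and did not pass. Both calls were lost without posterior replicate 1 and with the methods' t-test, and without normalization 0 Purkinje cell probes were higher and 2 lower. The sums of the granule neuron list were 43130 and 42235 against 42606 and 42124, with the brightest probe for Cbln1, and those of the Purkinje cell list 88821 and 92373 against 82961 and 83518, with the brightest probe for Itpr1.

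The promoters of the collagen genes were read from RefSeq sequences of GRCm38.p6, 300 bases around the start of the gene, of which 32 collagen genes had a window. Col1a1, Col2a1, Col4a3, Col5a2, Col9a3, Col12a1, Col14a1 and Col22a1 had none. TATAAA, searched on both strands like the other motifs, was found in 5 of the 32 genes against 15.7% of all 27025 genes, GGGCGG in 19 against 38.2%, CCAAT in 12 against 41.1%, and TAATCC, a motif bound by Otx proteins, in 0 against 8.14%. Of the 5 genes that were higher and had a window, Col17a1 and Col3a1 held TATAAA, Col23a1 held GGGCGG and Col17a1 held CCAAT. Of the 3 lower genes, Col18a1 and Col27a1 held GGGCGG and Col18a1 held CCAAT. A match is a description of these letters and not of a bound site.

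The 250 bases before the start of Col28a1, the collagen gene past the adjusted p, and of Col17a1, higher on each of its 3 tested probes, are given 5′ to 3′ on the strand of the gene, with the motifs in capitals. That of Col28a1 (chr6:8192618-8192867, minus strand) held 0 of the motifs. That of Col17a1 (chr19:47692043-47692292, minus strand) held 3, a pair of TATAAA and 1 CCAAT on the opposite strand, which reads ATTGG.
Col28a1: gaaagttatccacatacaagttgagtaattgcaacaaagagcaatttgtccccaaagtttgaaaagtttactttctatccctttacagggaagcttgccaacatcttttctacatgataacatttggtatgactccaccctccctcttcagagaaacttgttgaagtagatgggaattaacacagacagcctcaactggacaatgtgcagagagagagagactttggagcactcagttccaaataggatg
Col17a1: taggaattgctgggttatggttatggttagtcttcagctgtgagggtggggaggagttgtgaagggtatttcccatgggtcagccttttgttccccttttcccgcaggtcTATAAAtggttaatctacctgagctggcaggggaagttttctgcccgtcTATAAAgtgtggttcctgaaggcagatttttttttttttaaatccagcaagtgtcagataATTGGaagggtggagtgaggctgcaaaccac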

How the data were processed

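Total RNA of 2 anterior and 2 posterior cerebellar lobe samples of PN7 Swiss mice was measured on Illumina MouseWG-6 v2.0 arrays. The authors deposited for each probe and array the mean bead intensity, its bead SD and the number of beads, from GenomeStudio with its normalization switched off. The authors also deposited a detection score, a fraction from 0 to 1. Another 16 columns of the table, over all 4 samples, were not used.

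In R 4.3.3, quantile normalization made the 4 arrays alike, a floor of 1 was set and log2 was taken. Probes with a detection score over 0.95 on at least 2 arrays were fitted with limma 3.58.1 (lmFit, eBayes with an intensity trend) with Benjamini-Hochberg adjustment across the tested probes. All p-values are two-sided and by limma unless another test is named. The criterion of a change over 1.2-fold with p under 0.05 is that of the study's text, while a legend of its figures names 1.5-fold. Its methods name a t-test with equal variances for comparisons of groups, which was run on the same values as an alternative added after the data had been seen. Each probe was reported on its own. The fit was checked on simulated data.

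Named in full are the collagen probes past the criterion and the probe with the highest signal of each group. Others named in detail, Xist, Ddx3y and Ttr were chosen after their values were seen. The members and lists were chosen with earlier results of these data known. List sums take from each gene the probe of highest mean signal. A probe undetected in 1 lobe is given as a bound. Alternatives were background correction by nec (offset 16), no normalization, a 75th percentile shift, cyclic loess, other filters, no trend, the replicate number as a block, leaving out each array, 1.5-fold and 1 probe per gene. The arrays' slides are not given in the sources used here.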

Additional observations from a re-analysis of the deposited data

How the results depend on the processing

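The count of probes past the adjusted p, 23 by limma, became 13 with no trend, 73 with no filter, 123 with no normalization and 0 to 2538 when an array was left out. The 1802 probes past the criterion became 766 to 4677 when an array was left out. The methods' t-test gave 741 past the criterion and 0 past the adjusted p, with 1763 at an unadjusted p under 0.05 and, for the collagens, 0 with 9. For the collagens, 1 probe past the adjusted p became 0 to 11 when an array was left out, and 13 past the criterion became 8 with a score over 0.99, 2 at 1.5-fold, 6 with 1 probe per gene and 8 to 19 when an array was left out. The collagen median ran from -0.033 to 0.059 when an array was left out. ILMN_2650447 of Col23a1 turned to -0.0077 without anterior replicate 1 (up to 0.19 without another array), Col4a1 to 0.019 without posterior replicate 1 (down to -0.18), and the choroid plexus median to 0.28 without anterior replicate 2 (down to -1.25); the cause was not tested. Col28a1 kept its direction under all 14 alternatives, from 1.31 to 1.57. Where a lobe keeps 1 array, the spread is taken from the other lobe. A replicate block gave 588 probes past the adjusted p and 2818 past the criterion, of which 5 and 17 were collagens. The numbers are shared by 2 pairs of samples and the labels do not say that they pair them; the difference between replicates correlated between lobes with r = 0.46 over tested probes. The slide as a block was not run. The counts of the gene lists under the alternatives, and that of 1 probe per gene detected on all 4 arrays, were added after seeing the data. Signals near the lowest detected ones, as for Col3a1, Col17a1, Col24a1 and Col27a1, limit how well a fold can be measured.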
